A study of Arabidopsis thaliana with 12 samples.

Results

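AT5G52530 and AT5G52960 are protein-coding genes of Arabidopsis thaliana chromosome 5 that lie close to AT5G52520, the gene PRORS1 (also OVA6), which encodes a prolyl-tRNA synthetase. They are the 2 members described here, of 691 genes that have an array probe assigned to them alone, and each has 1 such probe. They were selected on measured values, namely their log2 differences between mutant and wild type, which ran in opposite directions in this stretch. The differences themselves are therefore given as a description, with no test. In the TAIR10.1 gene order AT5G52530 is the entry next to AT5G52520, and AT5G52960 lies 55 entries after it. The gene table used here lists only systematic names for both, so no role is given to either. PRORS1 itself has no value, since 0 probes list it.

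Aminoacyl-tRNA synthetases attach amino acids to their tRNAs and so supply the ribosome with charged tRNA. Plant cells make proteins in the cytosol, the plastids and the mitochondria, and the PRORS1 enzyme is imported into both organelles, where it charges tRNA with proline. Genes close to a mutated locus are inherited along with it, which is why their transcript levels are of interest in a mutant line.

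Total RNA was measured by array in 6 samples titled prors2_dark and in 6 samples titled WT2_dark, all in ecotype Columbia 0 and all from plants kept dark overnight. The mutant is described as having no prolyl-tRNA synthetase, and that PRORS1 is the mutated gene was taken from this description. Nothing in the sources used here gives the kind of mutation, the tissue or the meaning of the 2 in WT2. The source label reads wild type for all 12 samples, so the groups rest on the titles alone, and with no probe for PRORS1 they could not be checked on the mutated gene. The number of samples limits the precision, and the labels do not say whether the samples come from separate plants, so the p-values cover no more than sample-to-sample spread, possibly technical, and would be too small where samples with consecutive numbers come from the same RNA.

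Relative to the highest value of each array, the median probe was brighter in the mutant, which bears on both genes. The median deposited intensity lay between 0.240 and 0.403 in the prors2 samples and between 0.0620 and 0.0852 in the wild-type samples. Of 3439 probes, 431 to 609 were listed at 0 in the prors2 samples, against 746 to 926 in the wild-type samples. Intensities are in arbitrary units on a linear scale. The highest value was 100 in all 12 samples, so the values do not give the absolute brightness of an array. The samples form sets by number (1 and 2, 3 and 4, 5 and 6), and samples of a set were most alike in prors2. The correlation of their deviations from the group mean was 0.54 to 0.84 in prors2 and -0.03 to 0.18 in wild type. This was over 1940 features above 0 in all samples. The highest correlations with samples of other sets were lower in both groups. They were -0.36 to -0.22 in prors2 and -0.24 to -0.15 in wild type.

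AT5G52530 had overlapping deposited intensities in both groups, on arrays where the median probe was brighter in the mutant. Its intensity was 0.0985, 0.122, 0.0708, 0.0798, 0.0859 and 0.126 in prors2 samples 1 to 6. In wild-type samples 1 to 6 it was 0.0839, 0.138, 0.123, 0.0813, 0.154 and 0.121. The groups overlapped, with wild-type samples 1, 3, 4 and 6 inside the range of the mutant samples and wild-type samples 2 and 5 above it. The mean was 0.0972 ± 0.0227 in prors2 and 0.117 ± 0.0292 in wild type (SD, n = 6 each). In bulk RNA of this kind, fewer cells of a type and less RNA per cell cannot be told apart.

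AT5G52960 was brighter in every prors2 sample than in any wild-type sample. Its deposited intensity was 0.607, 0.609, 0.427, 0.382, 0.454 and 0.563 in prors2 samples 1 to 6. In wild-type samples 1 to 6 it was 0.109, 0.0314, 0.0718, 0.0133, 0.00203 and 0.0741. The lowest mutant value, in sample 4, lay above the highest wild-type value, in sample 1, and wild-type sample 5 lay far down the scale. The mean was 0.507 ± 0.0982 in prors2 and 0.0503 ± 0.0414 in wild type (SD, n = 6 each). Groups that did not overlap in this direction were common, since 52.5% of the 2684 tested features had all prors2 samples above all wild-type samples as deposited, and 3.20% had them all below.

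**Figure D1:**
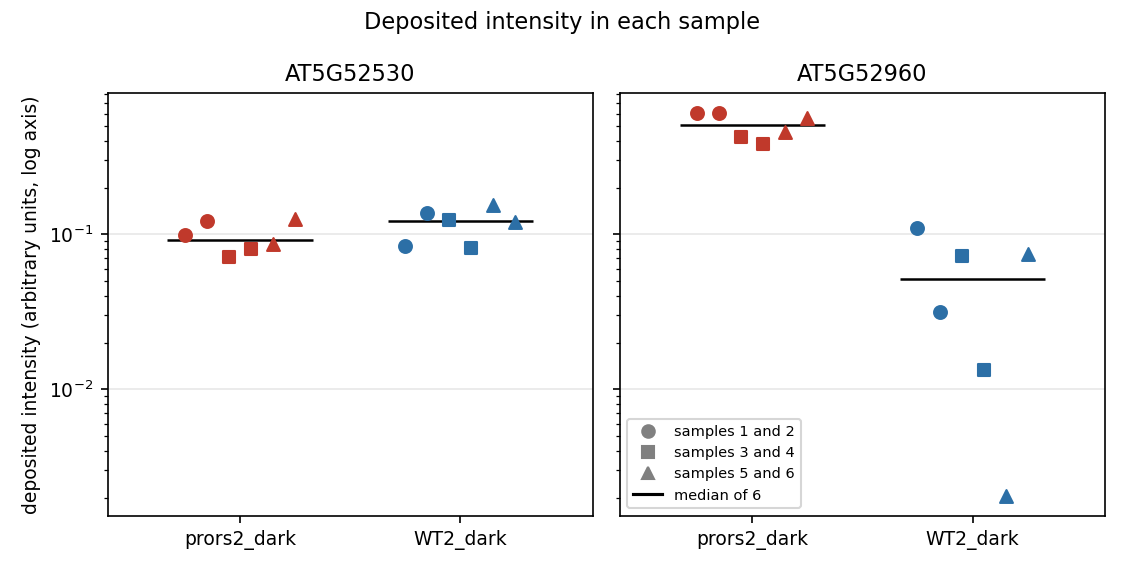
Deposited intensity (arbitrary units, log axis) of AT5G52530 and AT5G52960 in each of the 6 prors2_dark and 6 WT2_dark samples; marker shapes show the sets of consecutive sample numbers and lines the group medians. The groups overlap for AT5G52530, and all prors2 samples of AT5G52960 lie above the highest wild-type sample, at 0.109.

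The standing of each gene among all probes of the same sample is not altered by any scaling that keeps the probes in order. For AT5G52530 the share of probes that were dimmer was 18.1%, 20.3%, 25.2%, 26.5%, 17.8% and 22.0% in prors2 samples 1 to 6. In wild-type samples 1 to 6 it was 51.3%, 61.6%, 63.8%, 54.6%, 63.5% and 57.2%. The gene thus stood in the lower part of every mutant array and just above the middle of every wild-type array, and the groups did not overlap. How many of all features do not overlap by this measure was not computed. The gene was selected on its difference, so nothing is read from the lack of overlap. The mean share was 21.7% ± 3.63 in prors2 and 58.7% ± 5.12 in wild type (SD, n = 6 each). Its own intensity overlapped between the groups, while the median probe was brighter in the mutant arrays.

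For AT5G52960 the share of dimmer probes was 65.7%, 66.8%, 69.7%, 65.6%, 58.4% and 66.7% in prors2 samples 1 to 6. In wild-type samples 1 to 6 it was 57.4%, 34.5%, 52.7%, 32.1%, 22.5% and 47.1%. The groups did not overlap here either, but by a narrow margin between prors2 sample 5 and wild-type sample 1. This gene too was selected on its difference, and the share over all features was not computed. The mean share was 65.5% ± 3.75 in prors2 and 41.1% ± 13.5 in wild type (SD, n = 6 each). Its place ranged widely between wild-type samples and little between prors2 samples.

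**Figure D2:**
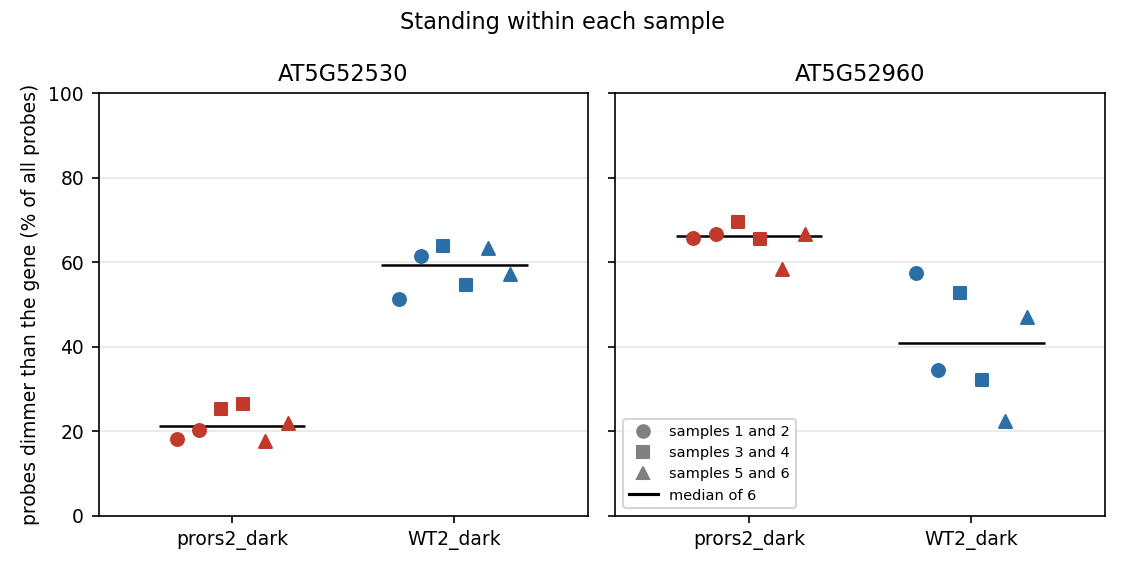
Share of all 3439 probes of the same sample that were dimmer than AT5G52530 or AT5G52960, in percent, in each prors2_dark and WT2_dark sample, with lines at the group medians. AT5G52530 lies between 17.8% and 26.5% in prors2 and between 51.3% and 63.8% in wild type, and AT5G52960 between 58.4% and 69.7% in prors2 and between 22.5% and 57.4% in wild type.

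After quantile normalization, which gives all samples the same distribution of values above 0, the 2 genes differed by nearly the same amount in opposite directions. The normalized log2 level of AT5G52530 averaged -4.69 ± 0.39 in prors2 and -2.31 ± 0.30 in wild type (SD, n = 6 each), a log2 difference of -2.38 (standard error 0.21). That of AT5G52960 averaged -1.70 ± 0.17 in prors2 and -4.10 ± 2.08 in wild type (SD, n = 6 each), a log2 difference of 2.39 (standard error 0.77). The samples of the 2 groups did not overlap for either gene on this scale, as was the case for 13.2% of tested features in the direction of AT5G52530 and 16.3% in that of AT5G52960. By limma with an adjusted p under 0.05, 25% of the 2684 features were called higher in prors2 and 20.6% lower (45.6% in all). As deposited these shares were 69.6% and 5.37%, and under median centring of the samples 24.3% and 33.7%. With consecutive samples as a random block (consensus correlation 0.70), limma called 358 features higher and 313 lower. Each gene's own difference was what selected it, so nothing is read from its place among these calls.

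The difference of AT5G52530 depended on how the higher median values of the mutant arrays were handled. Without normalization its log2 difference was -0.26 (standard error 0.22), while the median over all features was 1.49 on that scale. Only 239 of the 2684 features had a lower difference there (8.90%), and 358 were below 0 at all. With median centring, which subtracts a sample's median log2 value, the difference of AT5G52530 was -1.84, which 242 features undercut. After quantile normalization 51 features had a lower difference (1.90%). These places follow from how the gene was chosen. As deposited, its intensities in the 2 groups overlapped.

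For AT5G52960 the direction was the same on each of these scales, all of which rest on the values that selected it. Its log2 difference was 4.15 (standard error 0.81) as deposited and 2.56 (standard error 0.79) with median centring. As deposited 122 features had a higher difference, with median centring 123 and after quantile normalization 108 of the 2684 (4.02%). The size of the difference rested in part on wild-type sample 5. Without that sample the normalized log2 difference was 1.62 (standard error 0.37).

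**Figure D3:**
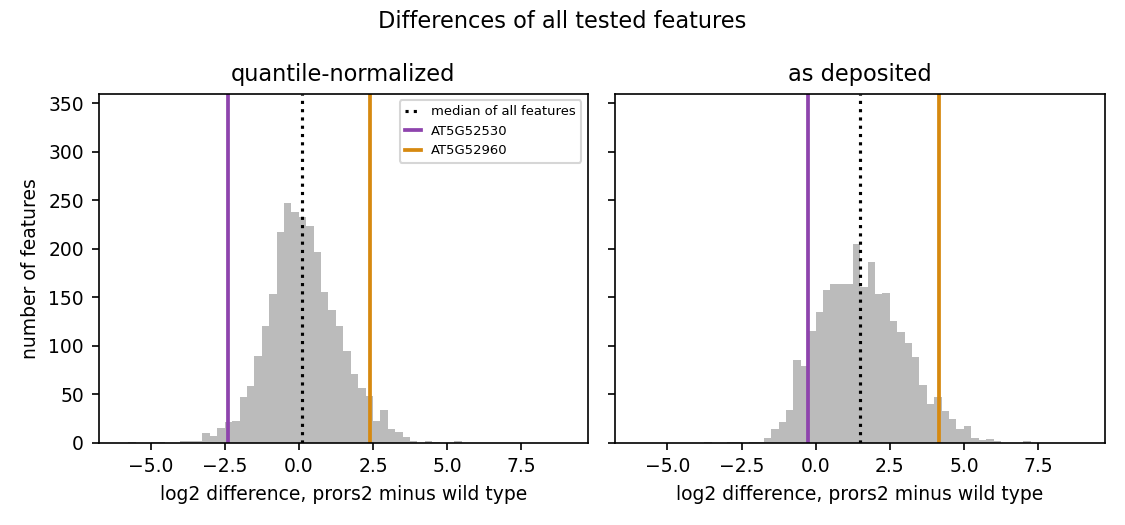
Number of features by log2 difference (prors2 minus wild type), after quantile normalization and as deposited, over 2684 tested features; solid lines mark AT5G52530 and AT5G52960 and dotted lines the median of all features. AT5G52530 lies at -2.38 and -0.26 and AT5G52960 at 2.39 and 4.15, with the median of all features at 1.49 as deposited.

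The differences were also computed within each set of consecutive numbers, 2 samples against 2. AT5G52530 had normalized log2 differences of -2.58 for samples 1 and 2, -2.03 for samples 3 and 4, and -2.53 for samples 5 and 6. AT5G52960 had 1.48, 2.09 and 3.61 in the same sets. These are subsets of the values that selected the genes, so their shared direction is no independent support. As deposited, AT5G52530 had log2 differences of 0.03, -0.41 and -0.39, and the first of these is above 0. AT5G52960 had 3.38, 3.71 and 5.37 on that scale.

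The spread of AT5G52960 was unequal between the groups. Consecutive prors2 samples differed in its deposited intensity by a ratio of at most 1.24, whereas consecutive wild-type samples differed by ratios of 3.48, 5.42 and 36.5. On the normalized log2 scale its SD of 0.17 in prors2 was lower than that of 94.8% of features, and its SD of 2.08 in wild type was higher than that of 97.3% of features. The median SD over features was 0.47 in prors2 and 0.45 in wild type. In wild type AT5G52960 was thus a dim and unsteady signal, in prors2 a steady one. AT5G52530 showed no such contrast, with an SD of 0.39 in prors2 and 0.30 in wild type and intensity ratios between consecutive samples of 1.13 to 1.47 in prors2 and 1.28 to 1.64 in wild type.

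By mean intensity over all samples, AT5G52530 belonged to the dimmest 25% of tested features and AT5G52960 to the next brighter 25%. Among the dimmest 25%, 8.05% of features were called higher in prors2 and 21.3% lower, and among the next 25%, 25.2% higher and 20.4% lower. As deposited, the median log2 difference of these classes was 1.92 and 2.03, against 0.34 for the brightest 25%.

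The stretch around AT5G52520 held 9 other genes with a probe of their own within 250 entries of the gene table on either side. Of these, 8 were tested, and AT5G51670, 115 entries before AT5G52520 and the only one on that side, was listed at 0 in all 12 samples. All tested neighbours thus lie on the side of AT5G52530. Among the 8, 1 rose in prors2 and 1 fell after quantile normalization (limma, adjusted p under 0.05), or 12.5% in each direction, against 25% and 20.6% over all features. As deposited 5 of the 8 were called higher and 1 lower, against 69.6% and 5.37% over all features. With median centring 2 of the 8 were called higher and 3 lower, against 24.3% and 33.7%. With consecutive samples as a random block limma called 1 of the 8 lower and 0 higher, against 313 and 358 of all 2684 features. AT5G53930 no longer passed in that fit (limma, adjusted p = 0.116), and 1 of the 8 was higher at an unadjusted p under 0.05. Their median log2 difference was 0.25, against 0.09 over all features.

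The 3 measured genes between or next to the members did not pass after quantile normalization. AT5G52660, 17 entries after AT5G52520, had deposited intensities of 0.0507 to 0.0896 (median 0.0649) in prors2 and 0.00480 to 0.0513 (median 0.0327) in wild type. Its normalized log2 difference was -1.23 (standard error 0.51, limma, adjusted p = 0.0653), with wild-type sample 6 at -6.56 and the others from -3.98 to -3.35. As deposited the difference was 1.27 and the gene passed as higher (limma, adjusted p = 0.0324), so the direction turned with the scale. AT5G52810, at 34 entries, had 2.34 to 4.07 (median 2.46) in prors2 and 2.58 to 4.18 (median 3.08) in wild type. Its groups overlapped, with a normalized log2 difference of 0.07 (limma, adjusted p = 0.791) and -0.18 as deposited, but it passed as lower with median centring (-1.77, limma, adjusted p = 1.2e-05). AT5G52970, at 57 entries and so close to AT5G52960, had 0.137 to 0.773 (median 0.280) in prors2 and 0.0515 to 0.0988 (median 0.0762) in wild type. As deposited all its prors2 samples were thus brighter, as for 52.5% of all tested features. After normalization the groups overlapped, and its log2 difference was 0.42 (standard error 0.40; limma, adjusted p = 0.407).

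Farther along, a pair of adjacent genes differed in opposite directions, as the members do. AT5G53920, at 176 entries, had deposited intensities of 0.713, 0.654, 0.606, 0.515, 0.829 and 0.794 in prors2 samples 1 to 6 and of 0.789, 1.04, 0.803, 0.879, 1.12 and 1.13 in wild-type samples 1 to 6. It fell by 1.17 on the normalized log2 scale (standard error 0.17; limma, adjusted p = 2.1e-04), and also passed as lower as deposited (-0.49, adjusted p = 0.0198). AT5G53930, the next entry, had deposited intensities of 0.356, 0.302, 0.141, 0.200, 0.193 and 0.249 in prors2 samples 1 to 6 and of 0.0295, 0.00914, 0.0206, 0, 0.0260 and 0.00933 in wild-type samples 1 to 6. It rose by 1.61 (standard error 0.33; limma, adjusted p = 0.00216), a value that leaves out wild-type sample 4, which was listed at 0. All mutant samples lay above all wild-type samples for AT5G53930 as deposited, as for 52.5% of all tested features. With consecutive samples averaged both genes passed (limma, adjusted p = 0.0321 for AT5G53920 and 0.0163 for AT5G53930). With consecutive samples as a random block AT5G53920 passed (limma, adjusted p = 0.00464) and AT5G53930 did not (adjusted p = 0.116).

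The other 3 genes did not pass after quantile normalization, and 2 of them passed with median centring. AT5G53080, at 72 entries, had a log2 difference of 0.48 (limma, adjusted p = 0.367) and AT5G53620, at 135 entries, of 0.61 (adjusted p = 0.150, with 2 wild-type samples at 0 left out). Both had all prors2 samples above all wild-type samples as deposited, as did 52.5% of all tested features. AT5G53620 passed as higher with median centring (1.28, limma, adjusted p = 0.00583). AT5G54110 (MAMI), named in the gene table as membrane-associated and mannitol-induced, lies at 207 entries. It had 0.547 to 0.847 (median 0.793) in prors2 and 0.420 to 0.717 (median 0.637) in wild type, a deposited log2 difference of 0.29 and a normalized one of -0.48 (limma, adjusted p = 0.0900), so its direction also turned with the scale. With median centring it passed as lower (-1.30, limma, adjusted p = 1.96e-04). As deposited the 8 neighbours had a median log2 difference of 1.72, against 1.49 over all features.

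**Figure D4:**
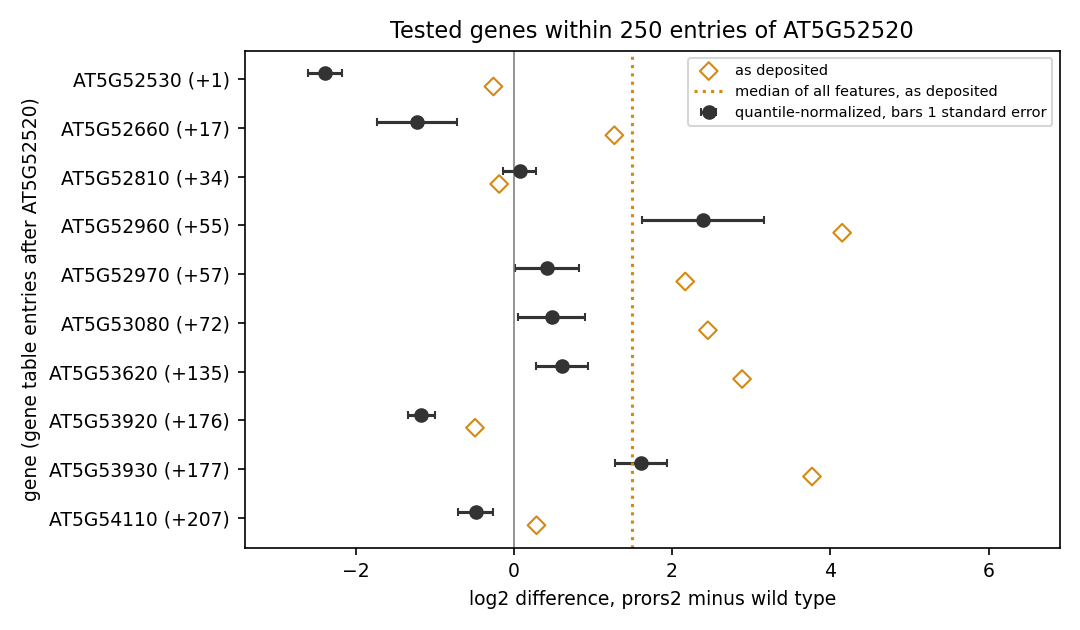
Log2 difference (prors2 minus wild type) of the 10 tested genes within 250 gene table entries of AT5G52520, ordered by entries after it; filled points are quantile-normalized values with 1 standard error, open diamonds the deposited values, and the dotted line the median of all features as deposited (1.49). AT5G52530 (-2.38) and AT5G52960 (2.39) have the lowest and the highest normalized difference, and the genes between and beyond them lie from -1.23 to 1.61. The members were selected for their opposite differences, so nothing is read from their place here.

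The genes with the pattern most like each member were looked for among 367 other named genes above 0 in all samples, by Pearson's r over the 12 normalized log2 values. Genes that differ between the groups in the same direction score high by this measure, and the samples of a set are not independent. For AT5G52530 the most alike were AT4G00170 (r = 0.967), AT1G54500 (0.964), AT2G38070 (0.963) and AT1G67820 (0.962). All 4 had lower normalized levels in prors2, with log2 differences from -2.20 to -0.91. As deposited their differences ran from -0.74 for AT1G67820 to 0.34 for AT2G38070. For AT5G52960 the most alike were AT2G33180 (r = 0.945), AT3G02690 (0.871), AT5G49840 (0.846) and AT2G29870 (0.815), all with higher normalized levels in prors2, by log2 differences from 1.17 to 3.60.

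With the group means taken out, the likeness shows only how samples of a group vary together. For AT5G52530 the highest r was then 0.735 with AT2G04540, followed by AT1G25500 (0.683), AT3G51930 (0.659) and AT4G13550 (0.628), none of them among the 4 found before. For AT5G52960 it was 0.900 with AT2G33180, followed by AT4G32340 (0.817), AT3G02690 (0.802) and AT4G24840 (0.801). AT2G33180 and AT3G02690 were thus among the 4 most alike by both measures. With group means taken out, r for AT5G52960 rests mainly on wild type, where its SD was 2.08 against 0.17 in prors2. The SD of AT2G33180 was likewise 2.73 in wild type and 0.25 in prors2. Likeness within prors2 alone was not computed. AT2G33180 had mean deposited intensities of 0.645 in prors2 and 0.0417 in wild type. The members themselves had r = -0.690 over the 12 values and -0.251 with group means taken out.

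**Figure D5:**
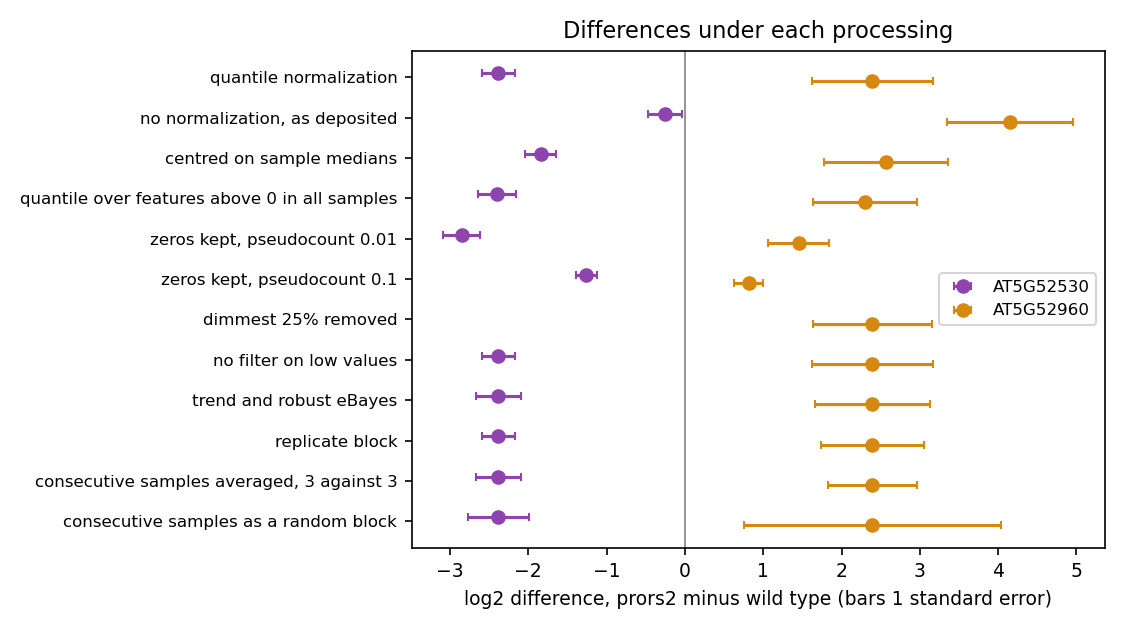
Log2 difference (prors2 minus wild type) of AT5G52530 and AT5G52960 under each processing, with bars of 1 standard error; AT5G52530 has no value once the dimmest 25% of features are removed. AT5G52530 lies between -2.85 and -0.26 and AT5G52960 between 0.81 and 4.15.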

How the data were processed

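The values are the intensities the authors deposited for 3439 probes in 12 samples. No source used here gives the scanning, background subtraction or scaling. The platform annotation pairs 692 probes with a single gene and 870 with several, and leaves 1877 without an entry. Of the 692, 691 matched the TAIR10.1 gene table, used only for names and gene order. Values at 0 were set as missing, the rest were taken to log2 and quantile-normalized, and probes of a gene were averaged. Features that had 3 or more values above 0 per group (2684 of 3438) were fitted with lmFit and eBayes of limma 3.58.1 (R 4.3.3), 2-sided, with Benjamini-Hochberg adjustment and a threshold of 0.05. The fit was tested on simulated data. Alternatives changed the normalization, the treatment of zeros (pseudocounts of 0.01 and 0.1), the filter on dim features, the variance settings, the replicate block, the handling of consecutive samples and the samples included. The members and lists were chosen with earlier results of these data known. Named are both members, every tested gene within 250 entries of AT5G52520, and for each member the 4 most alike genes by each of the 2 measures. The gene table held 0 genes with a probe whose symbol or synonyms name tRNA, so that list gave no value. Ranks within a sample, several-gene probes and adjacent gene pairs were added after the values had been seen. No sequences are printed, since none were used here.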

Additional observations from a re-analysis of the deposited data

Results flagged for a closer look

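Of 18 groups of 6 values examined among the members and their tested neighbours, 1 held a sample far from the others by Dixon's criterion (the gap to the nearest sample over the whole range), which by its 95% critical value marks about 1 in 20 groups by chance. It was AT5G52660 in wild type, at a normalized log2 level of -6.56 in sample 6, while the remaining samples of that group ran from -3.98 to -3.35. Neither member had such a sample by this measure. Wild-type sample 5 of AT5G52960, at -7.96 with the next at -4.73, did not meet it because the other wild-type samples were themselves spread out.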

How the results depend on the processing

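Both members kept the direction of their difference under all alternatives that gave a value. The alternatives reuse the values that selected the genes, so the kept direction is no independent support. As deposited the log2 difference was -0.26 (standard error 0.22) for AT5G52530 and 4.15 for AT5G52960. On that scale 2013 features were called (1869 higher, 144 lower), and 7 of 10 genes of the stretch (6 higher, 1 lower) in place of 4 (2 and 2). Counts of the stretch given here hold both members, whose calls follow from their selection, and without them the main count was 1 higher and 1 lower of 8, against 25% and 20.6% over all features. With median centring AT5G52530 had -1.84, 653 features were called higher and 905 lower, and 3 genes of the stretch were called higher and 4 lower. With zeros kept and a pseudocount of 0.01, AT5G52530 had -2.85 and 1 gene of the stretch was called higher and 4 lower. Of all 2684 features that setting called 511 higher and 707 lower. With a pseudocount of 0.1, AT5G52530 had -1.26 and AT5G52960 had 0.81. In the stretch 2 genes were then called higher and 4 lower, and of all features 573 higher and 737 lower. The difference of AT5G52530 was thus larger with the small pseudocount and smaller with the large one. Both settings also bring the values at 0 into the normalization, and the cause was not tested. Normalizing only features above 0 in all samples left 1 of 8 genes of the stretch called higher and 3 lower, against 23.5% and 26.7% of 1940 features. Without the dimmest 25% of features AT5G52530 has no value, and 1 of 6 genes of the stretch was called higher and 1 lower. Of the 2013 features left, 649 were called higher and 440 lower. Within 100 entries, 1 of 6 genes was called higher and 1 lower, against 25% and 20.6% over all features. With consecutive samples averaged 515 features were called (307 higher, 208 lower), and with them as a random block 671 (358 higher, 313 lower), with 2 genes of the stretch called and 0 higher. In that fit the standard error of AT5G52960 was 1.64. Leaving out each sample in turn gave -2.46 to -2.27 for AT5G52530, 1.62 (without wild-type sample 5) to 2.75 for AT5G52960, 1122 to 1187 called features (605 to 650 higher, 507 to 537 lower), and 4 to 5 called genes of the stretch (2 higher, 2 to 3 lower).

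With the sample number as a replicate block 1209 features were called (669 higher, 540 lower), 4 genes of the stretch were called, and the members had -2.38 and 2.39. The main fit did not take the numbers as pairs. Their correlations across groups were 0.05 to 0.16, and 4 of 6 exceeded 0.1. Of 12 samples, 8 correlated best with their own number in the other group. A pairing by number is thus possible, and the replicate block is the fit for that case. Values near 0 limit AT5G52960 in wild type, where signal over background is unknown.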

Other observations

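Beside the genes with a probe of their own, 31 probes list several genes of which at least 1 lies within 250 entries of AT5G52520. Of these, 24 were tested, and 9 were called higher and 7 lower in prors2 (limma, adjusted p under 0.05), or 37.5% and 29.2%, against 25% and 20.6% over all tested features, with a median log2 difference of 0.41. No gene is named from them, because the signal cannot be given to 1 gene.

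Over the whole array, 7 pairs of tested named genes were adjacent in the gene table. Of these, 1 pair had differences of the same sign. In 1 pair, AT5G53920 and AT5G53930, both genes were called, and in opposite directions. Among the 102 tested named genes of chromosome 5, the 2 members included, 20.6% were called higher and 16.7% lower, against 31.5% and 17.0% of all 530 tested named genes.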
